A study of Mus musculus with 4 samples.

Results

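NF-kB is a family of transcription factors that switches on inflammatory, adhesion and survival genes, and 10 of its members and feedback targets are described here in the cells of subcutaneous mouse lung tumors: Nfkb1, Nfkb2, Relb, Nfkbia, Bcl3, Nfkbiz, Tnfaip3, Birc3, Traf1 and Icam1. The genes were chosen by earlier readings of their UMI levels in these same libraries, myeloid against lymphocyte and control against irradiated. Each was matched by symbol, and 10 of 10 were listed in all 4 tables, among 18605 genes that the tables shared. Both contrasts are therefore given below as descriptions and without any test.

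The tumors were LLC, the Lewis lung carcinoma line of C57BL/6 origin, grown under the skin of female C57/BL6N mice aged 6 to 8 weeks. The radiotherapy group (RT) held 3 libraries from individual samples (RT1 to RT3), irradiated with 24 Gy in 3 fractions of 8 Gy between day 7 and day 9 after injection, when tumors had reached about 100 mm3. The mock treated control group (NT) was 1 library in which 3 samples had been mixed, so the spread between control tumors was not measured. Cells of both groups were captured 72 h after radiation, and all tumors grew from the same cultured line in hosts with an intact immune system.

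In resting cells NF-kB dimers are held in the cytoplasm by inhibitor proteins of the IκB family. Signals from cytokine and pattern recognition receptors lead to the breakdown of these inhibitors, and the freed dimers enter the nucleus. Among the first genes they switch on are their own brakes, IκBα and A20, so the transcripts of the brakes are commonly read as a trace of the activity they restrain. A slower branch of the pathway processes the precursor made by Nfkb2 and works through RelB, and it is best known from dendritic cells and lymphoid tissue.

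Cells were assigned to 10 types from marker genes, and the type names used below mean no more than that the clusters carried those markers. The 55058 cells kept of 55805 barcodes held 41165 cells with a name. Neither the 10 genes nor the pathway lists used below helped to build the clusters. The 3 irradiated libraries and the control held between 69667759 and 108699844 UMIs (unique molecular identifiers, each standing for 1 captured messenger RNA). Pairs of libraries had between 182 and 277 barcode sequences in common. The table of RT2 stood apart, since it listed 18605 genes against 32285 in the others and no barcode above 11.95% mitochondrial UMIs, and Icam1, whose levels were often highest in RT2, is also given without it. As a check of the names, the 8 macrophage markers summed to between 8042 and 14838 CPM in macrophages and to at most 60.6 in T cells. The neutrophil clusters carried Rhox5, a gene of the LLC cells, at between 38.5% and 62.6% of its tumor cell level, and mature dendritic cells of RT3 carried it at 58%, against at most 6.57% in macrophages and monocytes. The part of tumor RNA in the neutrophil values and in that library's dendritic cell value was not tested.

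Promoter sequences were available from RefSeq (GRCm38.p6) for 7 of the 10 genes, and Nfkbiz, Nfkb1 and Relb had no entry in the table. The NF-kB consensus, a motif of 10 letters, was searched on both strands from 250 bases before to 50 bases after each start, and 6.55% of 27025 genes had a match in a window. It was found in 4 of the 7, before the start in Nfkbia, Tnfaip3 and Nfkb2 and after it in Bcl3. The 80 bases before the start of the first 3 are shown because a match lay within them, and capitals mark the consensus matches. No link between the motif and the levels was tested. Where the table listed more than 1 start, the first is shown. Tnfaip3 had 2 starts with a match at 1 of them, and Nfkb2 had 3 with a match at each. The windows are chr12:55492648-55492727 for Nfkbia and chr10:19015411-19015490 for Tnfaip3, both on the minus strand, and chr19:46304657-46304736 for Nfkb2 on the plus strand.
Nfkbia: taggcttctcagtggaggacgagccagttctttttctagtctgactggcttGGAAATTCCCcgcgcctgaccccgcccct
Tnfaip3: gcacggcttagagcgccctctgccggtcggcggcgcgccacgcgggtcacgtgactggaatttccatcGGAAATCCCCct
Nfkb2: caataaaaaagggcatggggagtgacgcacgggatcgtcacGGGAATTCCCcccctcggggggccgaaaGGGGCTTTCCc
Nfkb2 held 2 matches in this stretch, whereas Birc3, Traf1 and Icam1 had none in the 300 bases searched, which says only that these letters were not in that window.

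Levels are CPM, the UMIs of a gene per 1000000 UMIs of the same cell type and library. Where 3 values follow a value of NT, they are those of RT1, RT2 and RT3 in that order. Because the kit reads the 3′ end of transcripts, a level is compared between cell types and libraries for 1 gene at a time and never between genes. The mean and SD over 4 libraries are given with n = 4, values of RT with n = 3, and an interval on a single library is the exact Poisson 95% interval, which covers counting error only.

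**Figure D1:**
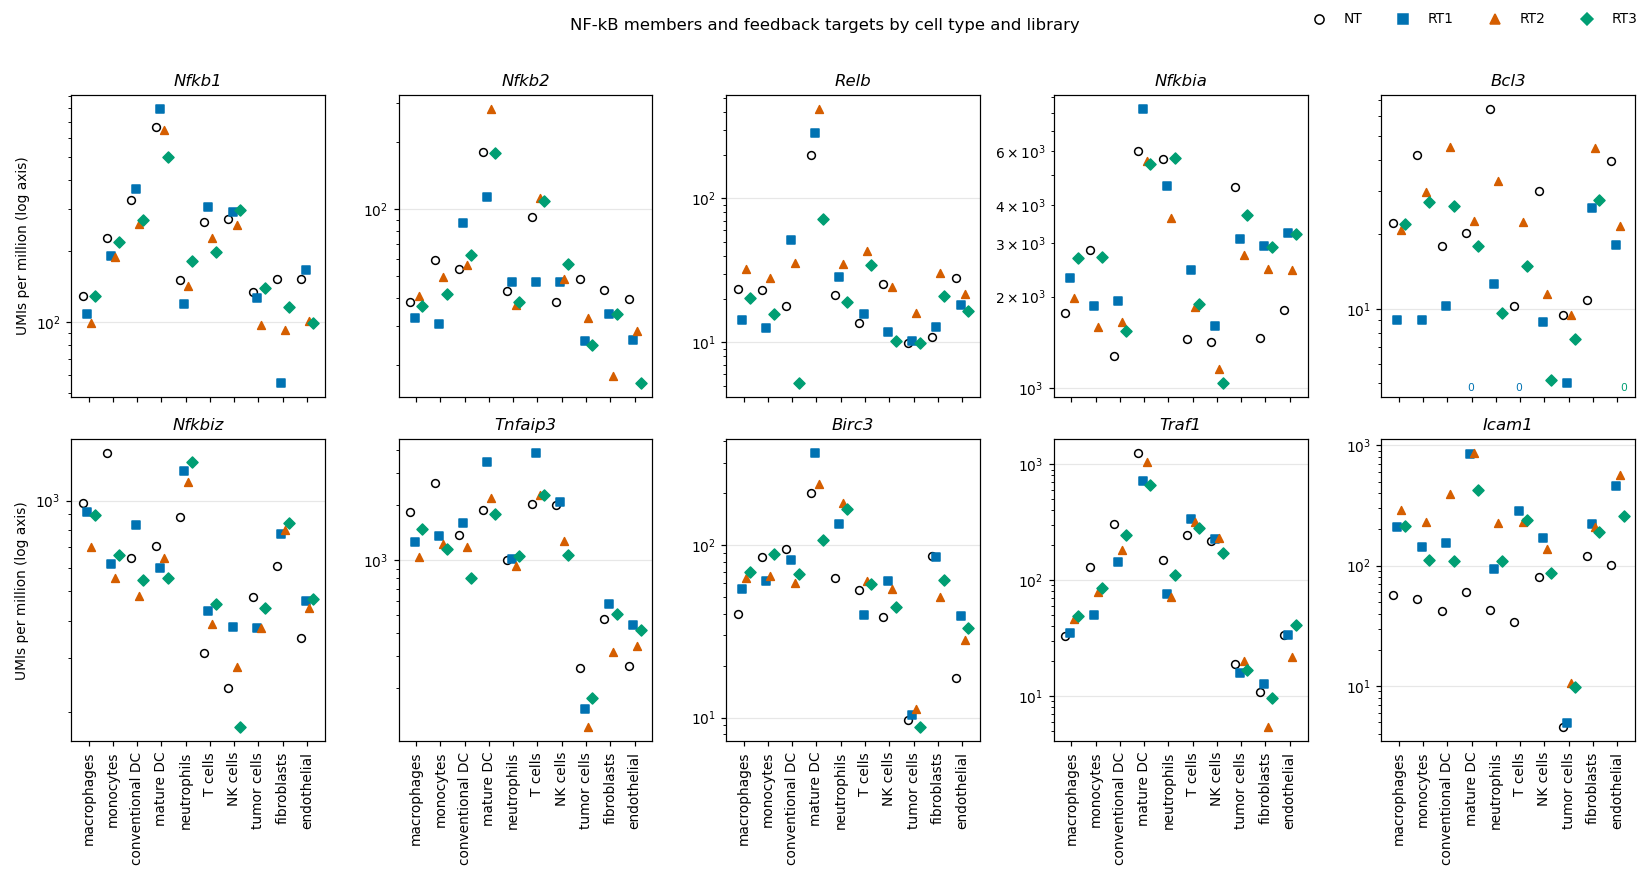
CPM (log axis) of the 10 genes in 10 cell types, with 1 symbol per library (open circle NT, filled symbols RT1 to RT3) and 0 written where no UMI was counted. Mature dendritic cells lay highest for Nfkb1, Nfkb2, Relb, Nfkbia, Birc3, Traf1 and Icam1 in the mean of the libraries, and the open circles of Icam1 lay below the filled symbols in every cell type.

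Nfkb1 encodes the precursor of p50, a DNA-binding subunit of the canonical dimers. It was highest in mature (Ccr7 positive) dendritic cells, at 665 CPM in NT and 798.4, 647.1 and 500 in the RT libraries, and each of these values lay above all values of conventional dendritic cells, which were next with a mean of 305.7 ± 49.2 (SD, n = 4). Natural killer (NK) cells followed at 280.2 ± 18.8 and T cells at 248.7 ± 46.9, and the ranges of these 3 types overlapped. Macrophages stood near the bottom at 116.5 ± 15.3, below monocytes at 206.3 ± 19.6, and the lower value in macrophages was present in 4 of 4 libraries.

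Nfkb2 encodes p100, the precursor that the slower branch turns into p52. Mature dendritic cells again led, with a mean of 189.5 ± 70.2 CPM, above all values of T cells at 90.3 ± 30.1. Conventional dendritic cells, NK cells, monocytes, neutrophils and macrophages lay between 64.9 and 37.0 and overlapped with their neighbors in that order.

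Relb encodes the partner of p52. Its level in mature dendritic cells was 201.5 CPM in NT and 285.1, 420.1 and 71.4 in RT, from 4 to 37 UMIs per library. Every other cell type averaged 27.5 or less, and no value of any other type reached the lowest value of mature dendritic cells. Relb was highest in RT2 in 4 of the 6 cell types in which it was measured and lowest in RT3 in 4 of 6. In macrophages and in lymphocytes as a whole the RT libraries did not share a direction against NT.

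Nfkbia encodes IκBα, the main inhibitor that NF-kB itself induces. Mature dendritic cells held a mean of 6322 ± 1321 CPM and neutrophils 4894 ± 995, and the 2 ranges overlapped. Tumor cells came next, at 4585 in NT and 3096, 2728 and 3716 in RT. The value of NT was the highest of the 4. Tumor cells held 211061 of the 348799 Nfkbia UMIs in the kept cells of the control library, and 46028983 of its 69265692 UMIs of all genes. Unnamed cells, with 18753994 UMIs of all genes in that library, are not among the types ranked here. NK cells were lowest at 1304 ± 252, with a range that overlapped with conventional dendritic cells.

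Bcl3 and Nfkbiz encode atypical IκB proteins, which act in the nucleus on p50 and p52 dimers. Nfkbiz was highest in neutrophils (1159 ± 202 CPM), macrophages (874.2 ± 121) and monocytes (817 ± 416) and lowest in NK cells (269.7 ± 85.9). The large SD of monocytes came from the control library, which stood at 1438 against 616.6, 552.7 and 660.7 in RT. Bcl3 was scarce in every type, at 29.8 ± 25.2 in neutrophils and 7.85 ± 2.09 in tumor cells, and its order across types was not separated by the spread between libraries. In macrophages and monocytes alike Bcl3 was lowest in RT1, at 8.99 and 8.96 CPM, against 20.8 or more in every other library.

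Tnfaip3 encodes A20, an enzyme that edits ubiquitin chains and shuts off signaling upstream of NF-kB. T cells held 2612 ± 842 CPM, mature dendritic cells 2338 ± 761, NK cells 1612 ± 508, monocytes 1603 ± 713, macrophages 1409 ± 345 and conventional dendritic cells 1239 ± 338, each overlapping with the next in this order. Neutrophils, at 1005 ± 50.6, were above every value of fibroblasts (469.1 ± 112). Tumor cells were lowest at 177.7 ± 57.9, with no value reaching the lowest of endothelial cells at 264.9.

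Birc3 encodes cIAP2, a ubiquitin ligase that keeps cells alive under TNF, and Traf1 encodes an adaptor of TNF receptors that binds it. Birc3 averaged 219.5 ± 96.7 CPM in mature dendritic cells and 133.6 ± 49.4 in neutrophils and had its lowest mean, 9.98, in tumor cells. For Traf1, mature dendritic cells held 1249 CPM in NT and 712.8, 1056 and 660.7 in RT, T cells 295.9 ± 39.9, NK cells 212.2 ± 27.4, monocytes 86.1 ± 32.8 and macrophages 40.9 ± 8.19. T cells, NK cells and mature dendritic cells were above monocytes and macrophages in every library, with no overlap.

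Icam1 encodes an adhesion protein that binds the integrin LFA-1 of leukocytes and is a classic NF-kB target in endothelium. Its mean was highest in mature dendritic cells (551.8 ± 385) and endothelial cells (345.6 ± 207), but the SD is that of a split between the control and the irradiated libraries, described next. In tumor cells Icam1 was at 4.52 CPM in NT and 4.88, 10.7 and 9.80 in RT, below the lowest value of every other type.

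Icam1 was higher in every RT library than in NT in 9 of the 9 cell types in which it was measured, that is, with a mean of at least 20 CPM over the 4 libraries. In macrophages it was at 56.5 CPM in NT (interval 47.7 to 66.5), from 145 UMIs, and at 208.5, 290.7 and 212.9 in RT. The groups did not overlap, and the mean log2 ratio of RT over NT was 2.05 ± 0.27 (SD, n = 3). In monocytes the level was 52.4 in NT and 143.8, 231.7 and 111.8 in the RT libraries, a log2 ratio of 1.55 ± 0.53. RT2 was the highest library in both types, and without it the log2 ratio was 1.89 in macrophages and 1.26 in monocytes.

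Lymphocytes carried the same direction for Icam1. T cells stood at 34.3 CPM in NT (interval 16.4 to 63.1), from 10 UMIs, and at 282.6, 228.6 and 237.5 in RT, a log2 ratio of 2.80 ± 0.17. It was seen both in the cluster led by Cd8a, from 27.1 to between 207.1 and 235.9, and in the cluster led by Cd4 and Foxp3, from 46.6 to between 189.0 and 557.7. The NT value rested on 5 UMIs in each cluster, and the RT values of the Cd4 and Foxp3 cluster on 11 to 17. NK cells stood at 81.0 in NT and at 168.6, 137.6 and 87.3 in the RT libraries, and RT3 lay inside the interval of NT (48.8 to 126.5). Macrophage markers in T cells moved in the same direction, with 3 of 8 detected and a sum of 10.3 CPM in NT and between 4 and 6 of 8 detected and sums of 54.95, 60.6 and 54.4 in RT. Lyz2 in T cells was at 0.105% of its macrophage level in NT and at most 0.612% in RT. The part of macrophage RNA in T cell Icam1 was not tested.

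Among the rarer cells, endothelial Icam1 was at 101.4 CPM in NT and 459.5, 565.3 and 256.3 in RT, and fibroblast Icam1 was at 119.5 against 221.0, 210.5 and 191.9. Mature dendritic cells went from 60.4 in NT, on 3 UMIs, to 855.4, 862.9 and 428.5, which are ratios of 14.1 (counting interval 4.4 to 72.5), 14.3 (4.7 to 70.7) and 7.09 (2.15 to 36.8). Conventional dendritic cells went from 41.8 on 7 UMIs to 153.7, 394.6 and 109.4, and neutrophils from 42.9 on 2 UMIs to 94.6, 224.8 and 110.1. In neutrophils the counting interval of the ratio reached below 1 in RT1 and RT3. A 1.5-fold difference in every RT library, the size used throughout to call a gene between NT and RT, was reached by Icam1 in 8 of the 9 types, NK cells being the exception. The share of all measured genes that were called higher in the same way was 6.39% in macrophages, 10.6% in monocytes, 9.68% in conventional dendritic cells, 11.4% in mature dendritic cells, 14.5% in neutrophils, 6.75% in T cells, 6.42% in NK cells, 15.5% in fibroblasts and 9.68% in endothelial cells.

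**Figure D2:**
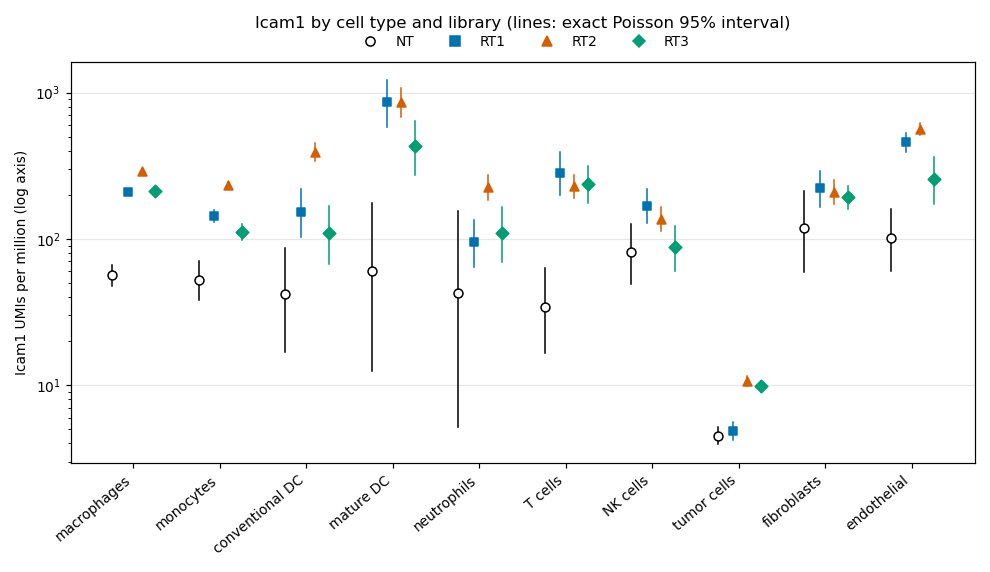
Icam1 in CPM (log axis) by cell type, with 1 symbol per library and a vertical line for the exact Poisson 95% interval of each value. NT (open circles) lay below RT1, RT2 and RT3 in every type, by 56.5 against 208.5 to 290.7 in macrophages, and its interval was widest in mature dendritic cells and neutrophils.

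In macrophages the other members differed less. Of 9 measured members only Icam1 was called, while 6.39% of 5162 measured genes were called higher and 4.77% lower. Birc3 was at 39.8 CPM in NT and 56.0, 64.3 and 69.4 in RT, with a log2 ratio of 0.66 ± 0.16. Nfkbia (log2 ratio 0.38 ± 0.22) and Traf1 (0.39 ± 0.26) were also higher in every RT library. Tnfaip3 was lower in each of them, at 1847 against 1262, 1039 and 1487 (log2 ratio -0.57 ± 0.26), as were Nfkbiz (-0.24 ± 0.21) and Nfkb1 (-0.22 ± 0.20). Lying on 1 side of NT in every RT library was common among all genes, at 33.1% higher and 33.8% lower, so 4 and 3 of 9 members are near that background. The median log2 ratio was -0.08 over the members and 0.00 over all measured genes.

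Monocytes differed from macrophages in that most of the list stood lower after irradiation. Of 9 measured members 7 were lower in every RT library, where 23.3% of 5068 genes were, and 1 was higher, where 43.5% were. Nfkbiz was at 1438 CPM in NT and 616.6, 552.7 and 660.7 in RT, a log2 ratio of -1.24 ± 0.13. Tnfaip3 was at 2664 and 1366, 1228 and 1153 (log2 ratio -1.10 ± 0.12). For both genes NT lay far above the 3 RT libraries, which were close to each other. Traf1 was at 129.2 in NT and 49.8, 79.3 and 85.9 in the RT libraries (log2 ratio -0.89 ± 0.42). These 3 members were called lower, where 2.98% of genes were, and Icam1 was called higher, where 10.6% were.

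Bcl3 (log2 ratio -1.12 ± 0.95), Nfkb2 (-0.59 ± 0.35), Nfkbia (-0.51 ± 0.39) and Nfkb1 (-0.19 ± 0.12) were lower in every RT library of monocytes without reaching 1.5-fold in each, while Birc3 lay on both sides of NT. The size of the Bcl3 difference rested on RT1, at 8.96 CPM against 41.9 in NT, 29.6 in RT2 and 27.1 in RT3, and without RT1 its log2 ratio was -0.58. The median log2 ratio over the measured members was -0.59, against 0.12 over all genes. Lower Nfkbiz and Tnfaip3 were found in each of the 3 monocyte clusters, whose leading genes were Cxcl3 and Ppbp, Chil3 and Plac8, and Slfn4 and Ly6c2. In the cluster led by Chil3, the chitinase-like protein of classical monocytes, Nfkbiz was at 1432 in NT and 503.2, 481.4 and 551.7 in the RT libraries.

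Genes known to be switched on while tissue is dissociated moved with these members. Of 13 such genes, the immediate early genes Fos, Jun and Egr1 and the heat shock genes Hspa1a and Hspa1b among them, 13 were lower in every RT library of monocytes and 4 were called lower, with a median log2 ratio of -0.97. Their summed level in monocytes was 60564 CPM in NT and between 22401 and 40336 in the RT libraries. In macrophages the sum was 49024 in NT and between 33494 and 40053 in RT, with 7 of 13 genes lower in every RT library. The part of this response in the lower level of the NF-kB feedback genes was not tested. Median depth per monocyte was 1301 UMIs in NT and between 1271 and 2393 in RT.

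**Figure D3:**
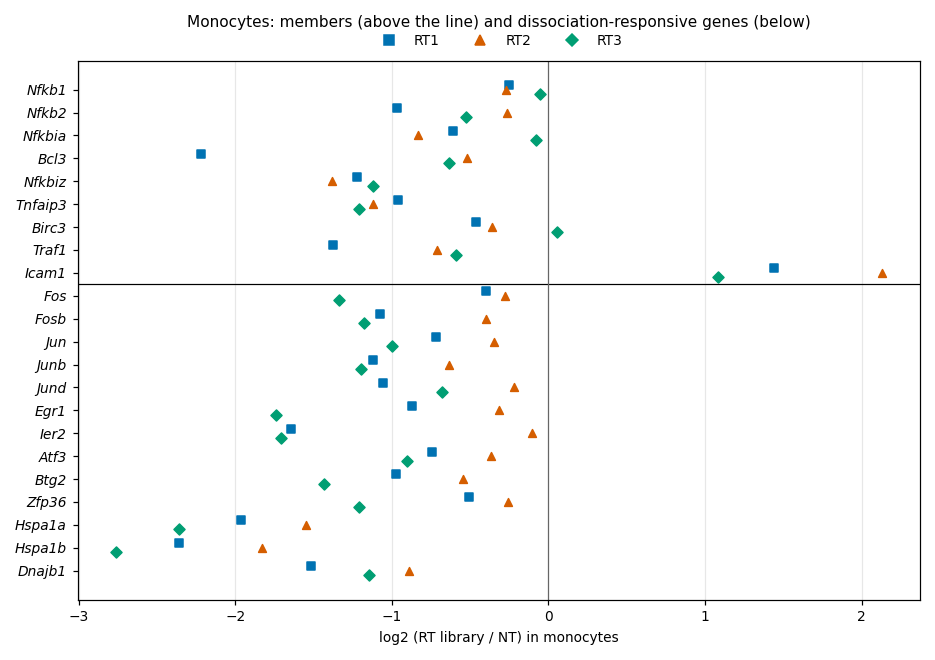
Log2 ratio of each RT library over NT in monocytes (horizontal axis), for the 9 measured members above the line and the 13 dissociation-responsive genes below it, with 1 symbol per RT library. Icam1 lay to the right of 0 in 3 of 3 libraries, and the 13 genes below the line lay to the left in 3 of 3.

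Other genes of the pathway were counted from lists, to be read in monocytes against the 23.3% of all genes that were lower in every RT library, the 2.98% called lower and the 10.6% called higher. In monocytes 5 of 5 measured subunits and inhibitors outside the 10 members were lower in every RT library and 2 were called, Rel at 302.7 CPM in NT and 104.7, 99.6 and 164.8 in RT, and Nfkbid at 365.6 and 135.9, 175.7 and 177.1. Rel encodes c-Rel, a subunit of lymphoid and myeloid cells, and Nfkbid another atypical IκB. Of 25 measured further target genes 17 were lower in every RT library and 6 were called lower, with Vcam1 (log2 ratio -2.24) and Cd83 (-1.22) leading, while 1, the stress response gene Ier3, was called higher (2.11). Of 4 measured ligands the cytokine Il1b was called lower, from 12285 to 4138, 4510 and 3870 CPM, and Tnfsf14, the TNF family ligand LIGHT, was called higher (2.33 CPM in NT, on 2 UMIs, and 24.0, 21.5 and 33.7 in RT). Of 9 receptors Tlr4 was called higher (1.41), and of 19 kinases and adaptors Irak1 was called higher (0.91) and Tnip1, a partner of A20, lower (-0.88), shares near or below those of all genes for the higher calls.

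In macrophages the same lists held fewer called genes. None of 5 subunits and inhibitors, of 20 kinases and adaptors or of 10 receptors was called, by a rule of size and not by a test. Of 4 ligands Il1b was called lower (log2 ratio -1.49), and of 24 further targets Ier3 was called higher and Ccl4, a chemokine, lower, from 9498 to 5148, 4339 and 4783 CPM. Ier3 was thus higher beside Icam1 in macrophages, at 343.9 CPM in NT and 1091, 1794 and 887.6 in the RT libraries.

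Lymphocytes as a whole showed no common direction apart from Icam1. Of 9 measured members Icam1 was called higher, at 55.1 CPM in NT and 199.8, 176.1 and 138.6 in RT, where 5.14% of 5627 genes were called higher and 4.32% lower. Being higher in every RT library held for 2 of the 9, Icam1 and Birc3, and for 21.7% of all genes, while none of the 9 and 38.9% of all genes were lower in every one. The other 8 had mean log2 ratios between -0.11 and 0.23, and 7 of them lay on both sides of NT. In T cells 6 of 9 measured members were higher in every RT library, where 21.4% of 5690 genes were, and none was lower in every one, where 31.6% were. Icam1 alone was called, and 4.87% of genes were called lower. Besides Icam1 these were Relb (log2 ratio 1.04 ± 0.62, on 4 UMIs in NT and 2 in RT1), Nfkbia (0.50 ± 0.23), Nfkbiz (0.45 ± 0.11), Tnfaip3 (0.43 ± 0.44) and Traf1 (0.34 ± 0.13). Nfkbia in T cells stood at 1447 CPM in NT and 2449, 1844 and 1890 in the RT libraries, the opposite side from monocytes. Rhox5 in T cells was at 4.38% of its tumor cell level in NT and at 7.59%, 5.13% and 9.07% in RT. The part of tumor RNA in T cell Nfkbia, a gene also high in tumor cells, was not tested. In NK cells 3 of 8 members were higher in every RT library (Icam1, Birc3 and Nfkb2), as were 25.9% of all genes, none was lower in every one, where 35% were, and none was called, where 7.32% were called lower.

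Among the pathway lists in lymphocytes, Ier3 was again called higher (17.1 CPM in NT and 113.9, 169.5 and 89.6 in RT), as was the ligand Tnf (98.8 and 530.6, 166.6 and 153.9). The lymphotoxin gene Ltb was called lower, at 62.7 against 10.7, 37.4 and 6.76, and so was the adaptor Traf5 (log2 ratio -1.84). The mix of lymphocytes moved with these calls, since T cell markers summed to 4576 CPM in NT and 2191, 3928 and 2440 in RT, and NK cell markers to 4234 and 10032, 7169 and 6210. Within T cells Traf5 was called lower (99.5 CPM against 31.4, 50.2 and 19.8) and Tnf higher, whereas Ltb was lower in every RT library without being called. Within NK cells Ltb was called lower and Tnf was not called. None of 5 subunits and inhibitors and none of 4 receptors reached the 1.5-fold rule. Dissociation-responsive genes summed to 16456 in lymphocytes of NT and to between 10492 and 16256 in RT.

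Tumor cells carried 5 of the 10 members above the minimum level. Nfkb2 was at 48.9 CPM in NT and 25.6, 32.4 and 24.4 in RT (log2 ratio -0.84 ± 0.22) and was called lower, where 0.492% of 6096 genes were and 3.54% were called higher. Nfkbia (log2 ratio -0.54 ± 0.22), Tnfaip3 (-0.79 ± 0.27) and Nfkbiz (-0.27 ± 0.13) were lower in every RT library as well, so 4 of 5 measured members shared the direction, where 35.9% of genes did. Tnfaip3 stood at 257.6 in NT and 154.4, 121.9 and 176.8 in the RT libraries, with no overlap. With cells above 10% mitochondrial UMIs left out Nfkb2 was no longer called. The dissociation-responsive genes were lower in tumor cells too, in every RT library for 7 of 12 measured, with a sum of 13626 in NT and between 8882 and 11886 in RT, and their part was not tested. Icam1, Birc3, Traf1, Relb and Bcl3 were below the minimum in tumor cells. Of 17 measured further targets Ccl5 (log2 ratio 2.51) and Ier3 (1.38) were called higher and Vcam1 (-0.87) lower.

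Outside these types the members followed no common direction. In conventional dendritic cells 3 of 10 were higher in every RT library (Icam1, Nfkbia and Nfkb2) and 2 lower (Birc3 and Traf1), against 30.4% and 27.8% of all genes, with 6.11% of genes called lower. In mature dendritic cells Icam1 was higher and Nfkbiz and Traf1 were lower in every RT library, among 9 measured, against 22.7% and 27.5% of genes, and 11.1% were called lower. In neutrophils 3 of 10 were higher and 3 lower in every RT library, against 25.2% and 48.9%. Birc3 was called higher there, at 64.4 CPM in NT on 3 UMIs and 132.5, 174.6 and 162.8 in RT, and Bcl3 was called lower, also on 3 UMIs in NT, where 24% of genes were. The counting interval of each of these ratios included 1.

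Both stromal types had higher Nfkbia after irradiation, and tumor cell markers were higher in them as well. NT held only 17 fibroblasts and 34 endothelial cells, against 82 to 182 fibroblasts and 34 to 147 endothelial cells in the RT libraries. In fibroblasts Nfkbia was at 1467 CPM in NT and 2924, 2471 and 2911 in RT and was called higher (log2 ratio 0.91 ± 0.14), as were Icam1 and Bcl3, the latter on 1 UMI in NT. The 5 tumor cell markers summed to 43.5 CPM in fibroblasts of NT, with 2 of 5 detected, and to 433.5, 563.7 and 429.1 in RT, with at least 4 of 5 detected. Of the 13 dissociation-responsive genes 9 were higher and 3 lower in every RT library, with 2 called higher (Atf3 and Egr1), 1 called lower (Hspa1b) and a median log2 ratio of 0.35. Of 8 measured members 4 were higher and 3 lower in every RT library, against 32.2% and 40.6% of genes, and 16.2% were called lower. In endothelial cells Nfkbia was at 1803 in NT and 3224, 2449 and 3208 in RT, and Tnfaip3 at 264.9 and 441.3, 338.7 and 413.4. There 5 of 9 members were higher and 2, Nfkb2 and Relb, lower in every RT library, against 29.2% and 28.8%, and 7.02% of genes were called lower. The tumor cell markers summed to 129.6 in endothelial cells of NT and to 633.4, 659.8 and 587 in RT, with 3 to 4 of 5 detected in every library, and 4 of 13 dissociation-responsive genes were higher in every RT library, with none lower in every one and a median of 0.34. Nfkbia was also high in tumor cells, and the part of tumor RNA and of the dissociation response in the stromal values was not tested.

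Summed over macrophages, monocytes and dendritic cells, 2 of 10 members were higher in every RT library (Icam1 and Birc3) and 6 lower, against 34.3% and 29.4% of genes, and Icam1 alone was called, where 6.01% were called higher and 3.24% lower. Over all kept cells Icam1 was at 8.00 CPM in NT and 41.8, 68.3 and 28.0 in RT and was called higher, where 5.59% of genes were and 0.937% were called lower. Of 8 measured members 2 were higher and 3 lower in every RT library there, against 26.9% and 40.8%. These sums also move with the shares of the cell types. Macrophages, monocytes and dendritic cells together were 13.4% of kept cells in NT and 30.9%, 32.3% and 23.3% in RT. Their median depth was 1917.5 UMIs per cell in NT and 1911, 3012 and 1525 in RT. The part of these shares in the values over all kept cells was not tested.

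**Figure D4:**
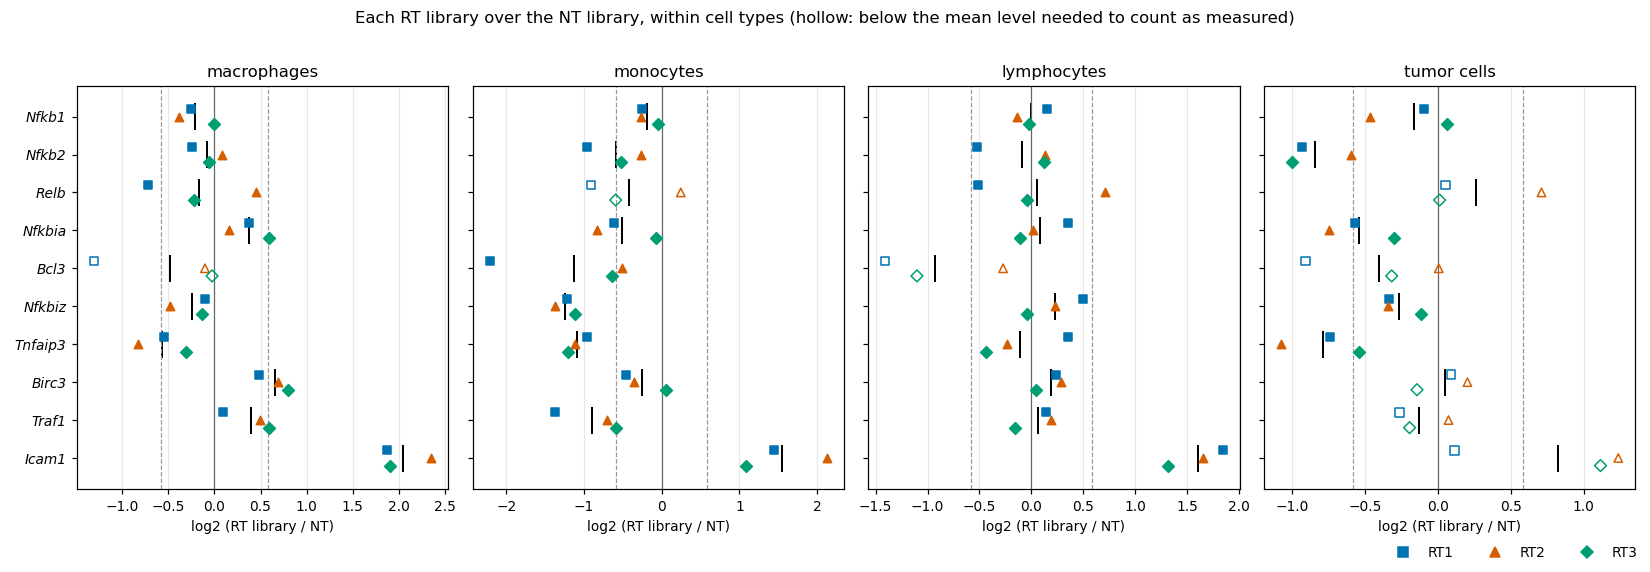
Log2 ratio of each RT library over NT (horizontal axis) for the 10 genes in macrophages, monocytes, lymphocytes and tumor cells, with 1 symbol per RT library, a bar at their mean and dashed lines at a 1.5-fold difference. Symbols are hollow where the gene was below 20 CPM on average. Icam1 lay beyond the right dashed line in 3 of 3 libraries in the first 3 panels, and Nfkbiz, Tnfaip3 and Traf1 lay beyond the left one in monocytes.

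Within each library, myeloid cells (macrophages, monocytes and both kinds of dendritic cell) were then set against lymphocytes (T and NK cells). Of 9 measured members Traf1 alone was at least 2-fold lower in every library, with log2 ratios of -1.47 in NT and -2.61, -2.08 and -1.56 in RT, where 15.5% of 5764 genes were called lower and 12.9% higher. Nfkbiz was higher in myeloid cells in 4 of 4 libraries, by 1.93, 1.09, 1.00 and 1.56 on the log2 scale, and the value of RT2 lay just under 2-fold. Between these 2 extremes Nfkbia (mean log2 ratio 0.54 ± 0.32, n = 4) and Birc3 (0.25 ± 0.25) were higher in every library and Nfkb1 (-0.85 ± 0.23) and Nfkb2 (-0.70 ± 0.17) lower in every library. Being higher in every library was true of 27% of all genes and being lower of 51.1%, and the median of all genes was -0.35.

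Tnfaip3, Relb and Icam1 lay on both sides of 0 between myeloid cells and lymphocytes. Tnfaip3 was level in NT (log2 ratio 0.00) and lower in myeloid cells in RT1 (-0.99), RT2 (-0.64) and RT3 (-0.13). For Nfkbiz, Traf1, Nfkb1 and Relb too the log2 ratio of myeloid over lymphocyte level was lower in every RT library than in NT, on average by -0.72, -0.61, -0.25 and -0.33. Nfkb1 was almost level in RT3, at -0.675 against -0.670 in NT. The share of all genes lower in this way was not counted, so nothing particular to the members is read from it. TMM factors move the log2 ratios of all genes in a library by 1 common amount. The sign of the Tnfaip3 mean, -0.44 as given here and 0.06 with TMM factors, was therefore set by the scaling, while Nfkb1, Nfkb2 and Traf1 were below 0 under both. The 2-fold calls also depended on the scaling. With TMM or DESeq2 factors Traf1 was less than 2-fold lower in NT and was not called, while Nfkbiz was called higher.

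**Figure D5:**
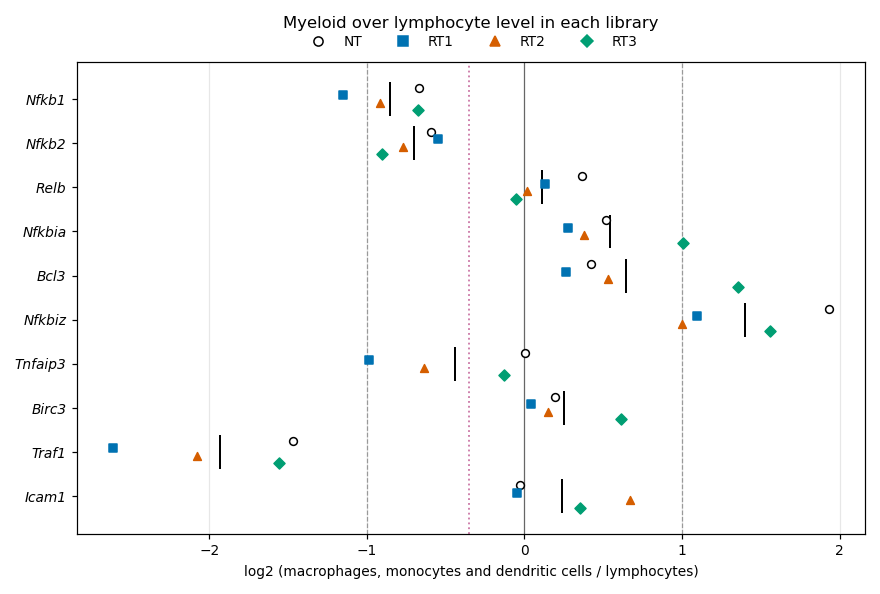
Log2 ratio of the level in macrophages, monocytes and dendritic cells over that in lymphocytes (horizontal axis), with 1 symbol per library, a bar at the mean, dashed lines at a 2-fold difference and a dotted line at the median of all genes, -0.35. Traf1 lay left of the dashed line in 4 of 4 libraries and Nfkbiz right of 0 in 4 of 4.

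Other genes of the pathway are given from the same lists, against 12.9% of all genes called higher and 15.5% called lower in myeloid cells. Of 25 measured further targets 16 were at least 2-fold higher in myeloid cells in every library, led by the chemokine gene Cxcl3 and by Clec4e, and 2, Csf2 and Ccl5 (mean log2 ratio -1.93), were lower. Of 9 receptors 5 were higher, led by Tlr2 and Cd40, and 3 lower, led by Tnfrsf18 and Tnfrsf4. Of 4 ligands Il1b and Il1a were higher and Tnfsf11 lower. Ratios of the leading genes are not given where the lower lineage held few UMIs. Of 19 kinases and adaptors Myd88 (1.28), the adaptor of Toll-like receptors, was higher, and 3 led by Birc2 (-1.75) and Cyld (-1.52) were lower, which is near or below the shares of all genes. None of 5 subunits and inhibitors reached 2-fold in every library, though 3 were higher in each.

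Neutrophils, which were kept apart from the myeloid sum, were at least 2-fold above lymphocytes in every library for Nfkbia (mean log2 ratio 1.68 ± 0.42) and Nfkbiz (1.86 ± 0.30), where 11.7% of genes were called higher, and Birc3 was higher in every library (1.29 ± 0.48). Relb (0.520 ± 0.465) and Bcl3 (1.06 ± 0.64) were higher in every library too, on 1 and 3 UMIs in neutrophils of NT. Tnfaip3 (-0.92 ± 0.35), Nfkb1 (-0.83 ± 0.33) and Traf1 (-1.27 ± 0.65) were lower in every library. In all, 5 of 10 members were higher and 3 lower in every library, against 25% and 27% of genes. Rhox5 stood in these neutrophils as given above, and Nfkbia was also high in tumor cells.

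Mature dendritic cells differed from conventional ones in 8 of 10 members, which were higher in every library, where 19.1% of 5333 genes were. Relb (mean log2 ratio 3.18 ± 0.48), Traf1 (2.08 ± 0.48) and Nfkbia (1.98 ± 0.23) were at least 2-fold higher in every library, where 5.98% were called. Bcl3 and Nfkbiz lay on both sides. The 17 to 31 mature dendritic cells in a library are few, and the lowest value of Relb, in RT3, rested on 4 UMIs.

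Macrophages were lower than monocytes in every library for Nfkb1 (mean log2 ratio -0.83 ± 0.07), Birc3 (-0.41 ± 0.47), Bcl3 (-0.44 ± 0.38) and Traf1 (-1.01 ± 0.66) and higher for Icam1 (0.47 ± 0.35), where 32.5% of 5172 genes were lower and 25.8% higher in every library. Tumor cells were at least 2-fold lower than macrophages in every library for Tnfaip3 (-3.01 ± 0.11), Birc3 (-2.50 ± 0.39) and Icam1 (-4.57 ± 0.73), where 15% of genes were. Nfkbia was higher in every library (0.69 ± 0.46) without reaching 2-fold in each. Being higher in every library held for 61.3% of 6094 genes, and the median of all genes was 0.56.

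Within macrophages Icam1 varied between clusters, and every RT library stood above NT in 7 of 7 of them. It averaged 253.4 ± 139 CPM in a cluster led by Ccl8, Ifit2 and Ifnb1, where NT was at 67.1 and the RT libraries at 283.4, 401.3 and 261.9. In a cluster led by Mmp12, Ppbp and Cxcl5 the mean was 62.0 ± 14.6, with NT at 47.8, on 4 UMIs, and the RT libraries at 78.2, 70.3 and 51.9. The cluster led by Ccl8, Lyve1 and Cbr2 was at 49.1 in NT and 223.3, 297.1 and 252.9 in RT.

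Among lymphocytes the cluster led by Cd4, Penk and Foxp3, genes of regulatory T cells, had the highest mean of Nfkb1 among the named lymphocyte clusters (418.9 ± 108 CPM) and of Traf1 (398.4 ± 79.5), both on as few as 10 UMIs in RT1. Its Nfkbiz was at 316.6 in NT and 1217, 733.7 and 633.0 in RT, from 21 to 66 UMIs per library. The cluster led by Cd8a and Gzmf had Nfkbiz at 309.4 and 287.9, 328.2 and 420.2, with NT inside the range of RT.

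Over the 10 cell types, the members whose levels ran most alike were Nfkb1 and Traf1 (Pearson r = 0.94), Nfkb1 and Nfkb2 (0.92) and Nfkb2 and Traf1 (0.90), whereas Nfkbia and Icam1 did not run together (-0.01). Of 6267 genes, those whose pattern was most like the mean of the 10 members were Mmp25 (0.94), Sp140 (0.94), Cd80 (0.93), Ric1 (0.92) and N4bp2l1 (0.92). These values describe the mean of 4 libraries in 10 types that share their libraries, and the mature dendritic cells lie far from the rest on most of them.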

How the data were processed

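Single-cell RNA sequencing was performed on 4 libraries of LLC tumors. Libraries were prepared by the authors with the SeekOne MM 3′ kit and processed with SeekOne Tools, and they deposited UMI counts per gene and barcode as whole numbers without normalization. The submitters' processing notes also name STAR 2.5.1b, featureCounts, Subread 1.6.4, Cell Ranger and the builds GRCm39 and mm39, without their roles. Promoters were matched by symbol on another build, GRCm38.p6, and no coordinate was converted. The strand setting of the counting is not given in the sources used here.

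Over all genes listed for their library, barcodes entered with 200 or more genes and no more than 20% of mitochondrial UMIs. Only the shared genes were carried on. Counts were scaled to 10000 per cell, log-transformed, and 2000 variable genes, without the pathway lists, gave 30 principal components. These were integrated with a rewritten Harmony algorithm and clustered by Leiden (leidenalg 0.10.2, resolution 0.8). Clusters were named from marker lists, with at least 3 markers, and 13893 cells stayed unnamed, most of them in 2 matrix-expressing clusters near tumor cells (12212 cells). Doublets were not removed, and the highest-scoring cells were left out in an alternative. UMIs were summed per library and cell type, 0.5 was added to each sum before log2 ratios, and genes with a mean of at least 20 CPM over the 4 libraries counted as measured. A gene was called at 1.5-fold or more in 1 direction in every RT library, or at 2-fold or more in every library within libraries. NT was 1 library, cells are not replicates and the contrasts chose the list, so no test was run. edgeR 4.0.16 (TMM) and DESeq2 1.42.0 gave scaling factors only. The calling step was checked on simulated counts.

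The members and lists were chosen with earlier results of these data known. The genes named are the 10 members, at most 2 called genes of each list in each direction with the largest ratio, the 5 most alike genes and the leading genes of clusters. The genes of the dissociation list named as examples, Ier3 and Rel in further cell types, and the clusters singled out were chosen after their values were seen. Depth per library was 69667759 to 108699844 UMIs.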

Additional observations from a re-analysis of the deposited data

Results flagged for a closer look

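Nfkbia lay on opposite sides of NT in different cell types. In macrophages it was higher in every RT library, by 0.377 on the log2 scale on average, whereas in monocytes it was lower in every RT library (log2 ratio -0.508) and in tumor cells as well (-0.540). Clusters did not all follow their cell type. Nfkbia was lower in every RT library of the macrophage cluster led by Mmp12 and Ppbp (3534 CPM in NT and 1960, 1377 and 3400). The macrophage clusters led by Retnla and by Birc5 lay on both sides of NT, and the others were higher in every RT library. In monocytes the cluster led by Cxcl3 and Ppbp lay on both sides (2997 and 1971, 1416 and 3123). The other monocyte clusters were lower in every RT library. Traf1 was likewise higher in every RT library of macrophages (0.392) and lower in every RT library of monocytes (-0.893). Each monocyte cluster was lower for Traf1 in every RT library. The macrophage clusters led by Ccl8 and Apoe, by Retnla and by Birc5 lay on both sides of NT for Traf1, and the others were higher. The difference between the cell types was not tested in any of these pairs, since NT was 1 library.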

How the results depend on the processing

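Across the alternatives, 120 of 141 recomputed medians and counts of called members moved by less than the spread between libraries or stayed within 1.5 times, 21 moved further, and no called value changed sign. The median log2 ratio of myeloid cells over lymphocytes (0.11) was the least stable: it was 0.61 with TMM factors, 0.54 with DESeq2 size factors, 0.17 with at least 500 genes per cell, 0.035 with cell types read from the marker UMIs of each barcode, 0.054 without non-tumor barcodes holding Rhox5, -0.052 with 2 added to each sum, 0.24 with myeloid types weighted equally and 0.031 without NT, an alternative chosen after seeing the data, as was adding the unnamed clusters near tumor or T cells. Its count of called members (1) was 2 with at most 10% mitochondrial UMIs, with at least 500 genes, without Rhox5 barcodes and with neutrophils included, and 0 with equal weights. With TMM or DESeq2 factors Nfkbiz was called in place of Traf1. The macrophage median (-0.08) was -0.22 with marker UMIs per barcode. The monocyte count (4) was 2 at a fold of 2, and the tumor cell count (1) was 0 at a fold of 2 and at most 10% mitochondrial UMIs.
With each RT library left out in turn, the macrophage median ranged from -0.118 to 0.117 (without RT1) and its count from 1 to 2 (2 without RT1), the tumor cell count from 1 to 2 (2 without RT3), the monocyte count from 4 to 5, and the myeloid over lymphocyte median from 0.094 to 0.128 and its count from 1 to 2 (2 without RT2).
No paired analysis was possible because NT has 1 library and shares no more than 1 replicate number with RT. Counting error limited the rare types, in which NT held 1 to 3 UMIs of some members.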
